A study of Mus musculus with 4 samples.

Results

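The SOX transcription factors described here are 10 genes of the Sox family, Sox2, Sox3, Sox4, Sox5, Sox6, Sox8, Sox9, Sox10, Sox11 and Sox21, picked by name because they are known from neural progenitors, astrocytes and the oligodendrocyte lineage. All 10 were found among the 53379 genes of the deposited count table, and 9 had enough counts to be tested. Sox10 was the exception. RNA sequencing counts were available for cortical astrocyte cultures of the C57BL/6 mouse strain in 2 groups of 2 samples, wild type and Npas3-/- (lacking, per its label, the bHLH-PAS transcription factor NPAS3). The cells of both groups were taken from newborn cortex, grown in serum with shaking to remove neurons and other cells, replated, and harvested at day 14 in vitro without further treatment. The labels do not say how the Npas3 allele was made, or whether the 2 samples of a genotype were separate animals, pools or cultures. The p-values therefore cover only how far these samples spread, and that spread may be technical.

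SOX proteins bind DNA through a shared HMG box, which inserts into the minor groove and bends the helix, and they act with partner factors on the same sites. The family is divided by sequence into groups with distinct roles. SoxB1 members (SOX1, SOX2, SOX3) hold neural cells in a progenitor state, the SoxB2 member SOX21 works against them, SoxC members (SOX4, SOX11, SOX12) are known from differentiating and immature cells, SoxD members (SOX5, SOX6, SOX13) modulate other SOX factors, and SoxE members (SOX8, SOX9, SOX10) drive glial specification, SOX9 in astrocytes and SOX10 in oligodendrocytes and Schwann cells.

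The start of the HMG box in the coding sequence is shown for all 10 genes because this is the feature that makes them a family. Each line gives 60 bases of the coding strand from the longest protein-coding GENCODE transcript on mm10, and capitals mark the 31 bases that are identical in every member.
Sox2: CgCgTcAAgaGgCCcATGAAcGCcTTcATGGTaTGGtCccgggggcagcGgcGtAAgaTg
Sox3: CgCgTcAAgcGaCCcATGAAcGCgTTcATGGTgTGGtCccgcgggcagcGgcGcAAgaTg
Sox21: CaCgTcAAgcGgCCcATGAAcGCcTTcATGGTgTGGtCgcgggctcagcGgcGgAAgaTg
Sox4: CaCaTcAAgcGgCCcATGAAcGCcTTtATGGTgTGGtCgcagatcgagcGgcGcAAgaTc
Sox11: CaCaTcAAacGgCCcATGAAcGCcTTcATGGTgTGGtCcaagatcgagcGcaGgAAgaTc
Sox5: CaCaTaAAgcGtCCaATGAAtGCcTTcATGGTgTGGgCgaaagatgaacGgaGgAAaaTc
Sox6: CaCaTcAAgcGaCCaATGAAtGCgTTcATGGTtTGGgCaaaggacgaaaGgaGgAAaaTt
Sox8: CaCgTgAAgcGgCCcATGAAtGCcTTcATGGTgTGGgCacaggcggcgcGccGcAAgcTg
Sox9: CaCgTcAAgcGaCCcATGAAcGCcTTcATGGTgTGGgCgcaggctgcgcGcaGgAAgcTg
Sox10: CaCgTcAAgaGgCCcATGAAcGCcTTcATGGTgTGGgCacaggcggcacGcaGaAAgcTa
Over the whole box of 237 coding bases, the 6 pairs of members in the same Sox group were 81.4% to 89.0% identical, with Sox4 and Sox11 the closest pair. The 39 pairs from different groups spanned 52.3% to 88.2%, the upper end being Sox3 with the SoxB2 gene Sox21. No pair of the 45 shared a stretch of 50 bases anywhere in its annotated transcripts. The printed stretches are at chr3:34650539-34650598 for Sox2, chr13:28952791-28952850 for Sox4 and chr11:112782894-112782953 for Sox9, each inside an exon.

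Depth was similar in all libraries, with 82965565 to 86932708 counts over genes. Genes with a count were fewer in Npas3-/-, 20652 and 21337 against 22902 and 23761 in wild type. The part of this difference in the fold changes was not tested. Npas3 itself was at 5129 and 8739 counts in wild-type replicates 1 and 2, against 2055 and 1386 in Npas3-/- replicates 1 and 2, which is -1.82 as log2 fold change (SE 0.33; edgeR quasi-likelihood adjusted p = 0.0181). After the correction for composition given below it was -0.65 (adjusted p = 0.111, same test). Transcript of Npas3 thus remained in both libraries labelled Npas3-/-, and counts over the whole gene do not show a loss limited to deleted exons. Of 18838 tested genes 33.1% passed an adjusted p of 0.05, 11.6% higher and 21.5% lower in Npas3-/-, and the fold changes rose with the GC content of the transcript (a Spearman's rho of 0.73 over 14356 genes, which are not independent). Because of this trend each Sox gene is also given with a per-library correction for GC content and length, under which 8.39% of genes passed, 4.58% higher and 3.82% lower. Any true difference that runs with composition is lost in that correction as well. Levels are in CPM (counts per 1000000 of the TMM-scaled library) as mean ± SD of n = 2, and log2 fold changes are Npas3-/- over wild type. In bulk RNA, fewer cells of a type and less RNA per cell cannot be told apart.

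Of the 9 tested Sox genes, Sox4, Sox6 and Sox11 fell in Npas3-/- and 0 rose, which is 3 of 9 lower against 21.5% of all tested genes. With the GC and length correction Sox4 alone fell, 1 of 9 against 3.82%. Wild-type and Npas3-/- libraries were separated in CPM for 6 of the 9, with 5 lower and 1 higher, where 75.8% of all tested genes were separated, 40.1% lower and 35.7% higher. The median log2 fold change of the 9 was -0.22, beside -0.07 over all tested genes, and -0.24 beside -0.03 after correction. Calls were lost when either Npas3-/- library was left out, while the fold changes of Sox4, Sox6 and Sox11 kept their direction. In such fits the spread between replicates came from the wild-type libraries alone. Without Npas3-/- replicate 1 only Sox6 passed, and without Npas3-/- replicate 2 none of the 9 passed, where 0 of all genes passed although 5728 had an unadjusted p under 0.05 by edgeR's quasi-likelihood test. Without Npas3-/- replicate 1 the log2 fold changes were -1.56 for Sox4, -2.60 for Sox6 and -1.06 for Sox11, and without Npas3-/- replicate 2 they were -1.36, -1.84 and -1.03. With either wild-type library left out, all 3 passed.

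**Figure D1:**
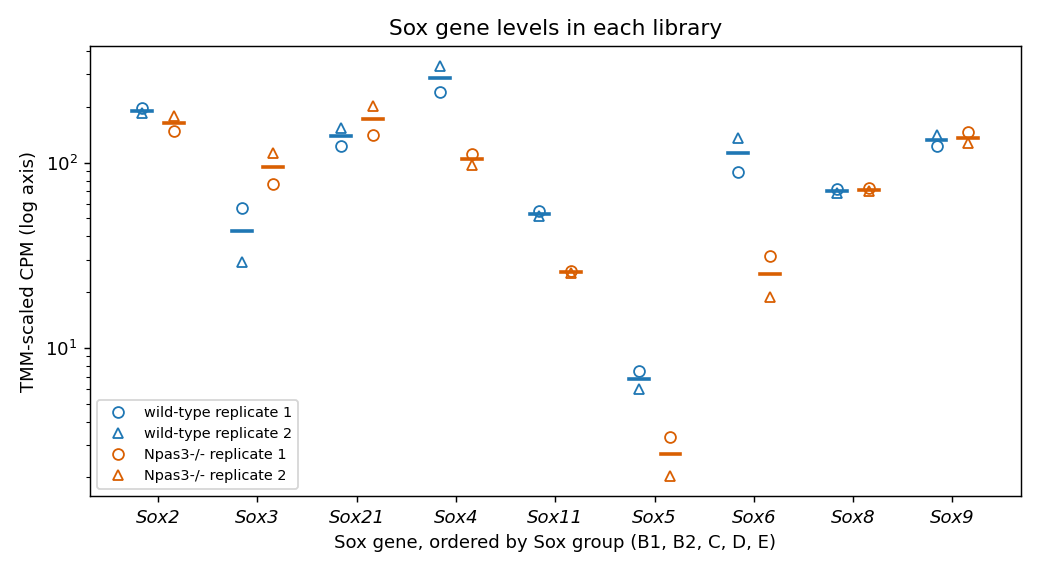
Level of the 9 tested Sox genes in each library, in TMM-scaled CPM on a log axis, with circles for replicate 1, triangles for replicate 2 and bars for the genotype mean. The genotypes are separated for Sox3, Sox4, Sox5, Sox6, Sox11 and narrowly for Sox2, and overlap for Sox21, Sox8 and Sox9.

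Sox4, a SoxC gene, was the member that passed the main test on all 4 libraries both with and without the correction. With a block for replicate number added to the correction, Sox4 did not pass (-1.23; edgeR quasi-likelihood adjusted p = 0.0764). It is a gene without introns at chr13:28948919-28953713 (minus strand, ENSMUSG00000076431.4). Its counts were 21331 and 31025 in wild-type replicates 1 and 2, against 9205 and 7483 in Npas3-/- replicates 1 and 2. Both Npas3-/- libraries thus lay far below both wild-type libraries. The level fell from 286 ± 64.5 to 104 ± 9.85 CPM, to 36.4% of wild type, which is -1.46 as log2 fold change (SE 0.24; 95% interval -2.06 to -0.85; edgeR quasi-likelihood adjusted p = 0.0163). After correction the log2 fold change was -1.25 (SE 0.20; adjusted p = 0.0273, same test). It lay between -1.69 and -1.22 in the 11 alternatives without the correction and between -1.60 and -0.998 in the 8 with it. Without Npas3-/- replicate 1 the adjusted p was 0.0547 and without Npas3-/- replicate 2 it was 0.0994 (edgeR's quasi-likelihood test), with log2 fold changes of -1.56 and -1.36. With the correction, leaving out these libraries gave -1.24 (adjusted p = 0.110, same test) and -1.23 (adjusted p = 0.167, same test), so the call was lost there too. The lincRNA gene Gm26735 lies across from Sox4 on the opposite strand and shares 2616 of its 4795 exon bases. It is at 0 counts in every library, and whether reads in the shared stretch were counted for Sox4 is not given in the sources used here.

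Sox11, the closest relative of Sox4, encodes a SoxC factor of immature neurons and progenitors. It lies at chr12:27334264-27342574 (minus strand) as another gene without introns. Its counts were 4859 and 4798 in wild type against 2147 and 1960 in Npas3-/-, so that the libraries of a genotype nearly coincided and the genotypes were well separated. The level fell from 53.0 ± 2.45 to 25.7 ± 0.326 CPM, which is -1.04 as log2 fold change (SE 0.20; edgeR quasi-likelihood adjusted p = 0.0214). After correction the sign turned, to 0.51 (SE 0.24; adjusted p = 0.230, same test), and the Sox11 transcript, at 8311 bases and 46.5% GC, is long and poor in GC where that of Sox4 has 4795 bases and 51.1% GC. The third SoxC gene, Sox12, was at 3869 and 2919 counts in wild type against 4338 and 4532 in Npas3-/- (log2 fold change 0.57; adjusted p = 0.125, same test).

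Sox5 and Sox6 encode SoxD proteins, which have no activation domain of their own and can help or hinder SoxE factors at shared targets. Sox6 (chr7:115470872-116038796, minus strand, 16 exons in its longest coding transcript) had 7940 and 12807 counts in wild type against 2596 and 1442 in Npas3-/-. The lower wild-type library held more than the higher Npas3-/- library by a wide margin, though the libraries of a genotype also differed. The level fell from 113 ± 33.5 to 25.0 ± 8.92 CPM, to 22.1% of wild type, which is -2.18 as log2 fold change (SE 0.36; edgeR quasi-likelihood adjusted p = 0.0160). After correction it was -0.51 (95% interval -0.93 to -0.09; adjusted p = 0.112, same test), negative in all 8 corrected fits but passing in none. Sox6 transcripts are 8668 bases long with 46.1% GC. Sox5 (chr6:143828425-144781977, minus strand), the scarcest tested member, had 667 and 563 counts in wild type against 274 and 157 in Npas3-/-. Its level was 6.76 ± 1.06 CPM in wild type and 2.67 ± 0.897 CPM in Npas3-/- (log2 fold change -1.34, SE 0.40; edgeR quasi-likelihood adjusted p = 0.0521), which missed the threshold, and 0.49 after correction (adjusted p = 0.452, same test). DESeq2 gave Sox5 an adjusted p of 0.0110 and limma-voom 0.0469, both lower in Npas3-/-. Sox13, the third SoxD gene, was at 1126 and 1496 counts against 1030 and 915 (log2 fold change -0.24; edgeR quasi-likelihood adjusted p = 0.530).

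Neither tested SoxE gene passed the test in any of the fits. Sox9, the astrocyte-determining member (chr11:112782224-112787760, plus strand), had 10959 and 13186 counts in wild type against 12112 and 9806 in Npas3-/-. The genotypes overlapped, at 132 ± 12.3 and 137 ± 13.3 CPM, with a log2 fold change of 0.05 (95% interval -0.44 to 0.54; edgeR quasi-likelihood adjusted p = 0.864). Sox8 (chr17:25565892-25570686, minus strand), which can stand in for its relatives in glia, had 6418 and 6435 counts in wild type against 6049 and 5389 in Npas3-/-. In CPM the 4 libraries of Sox8 lay between 68.7 and 73.0, the narrowest span of any tested member. In counts both Npas3-/- libraries lay below both wild-type libraries, so the overlap in CPM rests on the TMM scaling. The log2 fold change of Sox8 was 0.02 (95% interval -0.44 to 0.48). After correction Sox9 stood at 0.45 (95% interval 0.08 to 0.82; edgeR quasi-likelihood adjusted p = 0.111) and Sox8 at -0.44 (95% interval -0.81 to -0.07; adjusted p = 0.120, same test), so neither passed. An antisense gene, 2810468N07Rik, shares 329 of the 3118 exon bases of Sox8 and had 780 to 1360 counts per library. Reads from that stretch cannot be assigned without knowledge of strand.

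Sox10, the SoxE factor of oligodendrocytes and Schwann cells, was almost undetected. It had 0 and 5 counts in wild type against 0 and 8 in Npas3-/-, where 3 counts, the limit that a count of 0 allows, correspond to 0.0362 and 0.0345 CPM in the libraries at 0. Sox10 made up at most 0.0526% of the counts of the 3 SoxE genes in any library. It was left out of the test by the filter on low counts. Olig1 and Olig2, bHLH genes of the oligodendrocyte lineage that are often found with Sox10, were abundant in the same libraries, Olig2 at 17490 to 21836 counts and Olig1 at 92573 to 111046. The myelin gene Mog, the gap junction gene Gjb1 and the Sox10-dependent gene Zfp488 stood at 0 counts in every library. Most genes of this kind did not. Of 18 oligodendrocyte and myelin genes tied to SOX10, 14 had enough counts to be tested, and Cnp had 21416 to 35055 counts.

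The SoxB1 genes mark neural progenitors and remain on in astroglia. Sox2 (chr3:34650405-34652461, plus strand, without introns) had 17542 and 17286 counts in wild type against 12352 and 13781 in Npas3-/-. Its CPM were 198 and 185 in wild type against 149 and 179 in Npas3-/-, separated by a small gap. The log2 fold change was -0.22 (95% interval -0.72 to 0.28; edgeR quasi-likelihood adjusted p = 0.420) and -0.50 after correction (95% interval -0.88 to -0.13; adjusted p = 0.0901, same test), negative in all 19 alternatives and passing in none. Sox2 lies within the span of the long non-coding gene Sox2ot on the same strand, with 0 shared exon bases. Sox2ot fell from 33.4 ± 2.73 to 10.1 ± 6.27 CPM (edgeR quasi-likelihood adjusted p = 0.0437), and stood at -0.06 after correction.

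Sox3, the X-linked SoxB1 gene (chrX:60891366-60893430, minus strand, without introns), was the member with the highest GC content, 66.4%, and the only member with both Npas3-/- libraries above wild type. It had 5061 and 2716 counts in wild type against 6356 and 8725 in Npas3-/-. The level was 43.0 ± 19.8 CPM in wild type and 95.02 ± 25.9 CPM in Npas3-/-, which is 1.14 as log2 fold change (SE 0.39; edgeR quasi-likelihood adjusted p = 0.0696) that missed the threshold. DESeq2 called Sox3 higher (adjusted p = 0.0138), as did edgeR's quasi-likelihood test without wild-type replicate 1 (log2 fold change 1.69; adjusted p = 0.0209). After correction the log2 fold change was 0.18 (adjusted p = 0.627, same test). The X-inactivation transcript Xist stood at 0 counts in all 4 libraries. Y-linked genes, named after their values were seen, had counts in every library but were uneven. Ddx3y had 269 and 3992 counts in wild type against 228 and 152 in Npas3-/- (edgeR quasi-likelihood adjusted p = 0.0799), and Kdm5d, which fell, had 1653 and 3526 against 214 and 244 (adjusted p = 0.0130, same test) and did not pass after correction (adjusted p = 0.116, same test). Wild-type replicate 2, the lowest library for Sox3, was the highest for both, and the part of this in the Sox3 values was not tested. Sox1, the remaining SoxB1 gene, had 5980 and 5457 counts in wild type against 4691 and 5471 in Npas3-/- (log2 fold change 0.02; adjusted p = 0.944, same test).

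Sox21 (chr14:118233232-118237030, minus strand, without introns) encodes a SoxB2 repressor that counters SoxB1 proteins at their targets. Its counts were 10974 and 14437 in wild type against 11731 and 15636 in Npas3-/-, and the genotypes overlapped. The log2 fold change was 0.31 (95% interval -0.33 to 0.95; edgeR quasi-likelihood adjusted p = 0.380), and -0.24 after correction (adjusted p = 0.569, same test). The lincRNA gene Gm4675, on the opposite strand, shares 713 of its 3799 exon bases and had 107 to 171 counts per library.

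**Figure D2:**
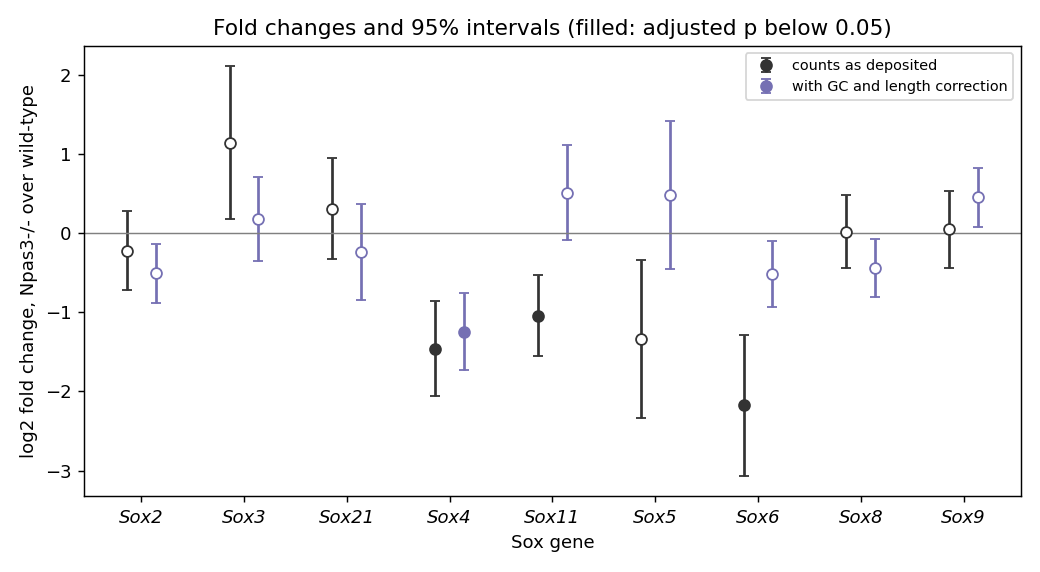
Log2 fold change of each tested Sox gene, Npas3-/- over wild type, with 95% intervals, from the counts as deposited (black) and with the GC and length correction (purple). Filled points passed an adjusted p of 0.05: Sox4, Sox6 and Sox11 without the correction, and Sox4 at -1.25 with it.

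The fold changes of the members ran along the composition of their transcripts. Over the 9 tested members the log2 fold change had a Spearman's rho of 0.73 on GC content and -0.72 on length, given as a description over genes of the same 4 libraries, and the value on length was -0.48 over all tested genes of at least 1 CPM. Tested genes with 46% to 50% GC numbered 3080 and their log2 fold changes had the median -0.46. For the 3046 genes with 50% to 54% GC the median was 0.35, and for the 3779 with up to 46% GC it was -1.97. Sox4, at 51.1% GC and -1.46, lay well below the median of its class, and Sox11, at 46.5% GC and -1.04, nearer to that of its own. Sox6, at 46.1% GC and -2.18, lay well below the median of its class too, though close to the class bound of 46%. Sox2, at 50.5% GC and -0.22, also lay below the median of its class.

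**Figure D3:**
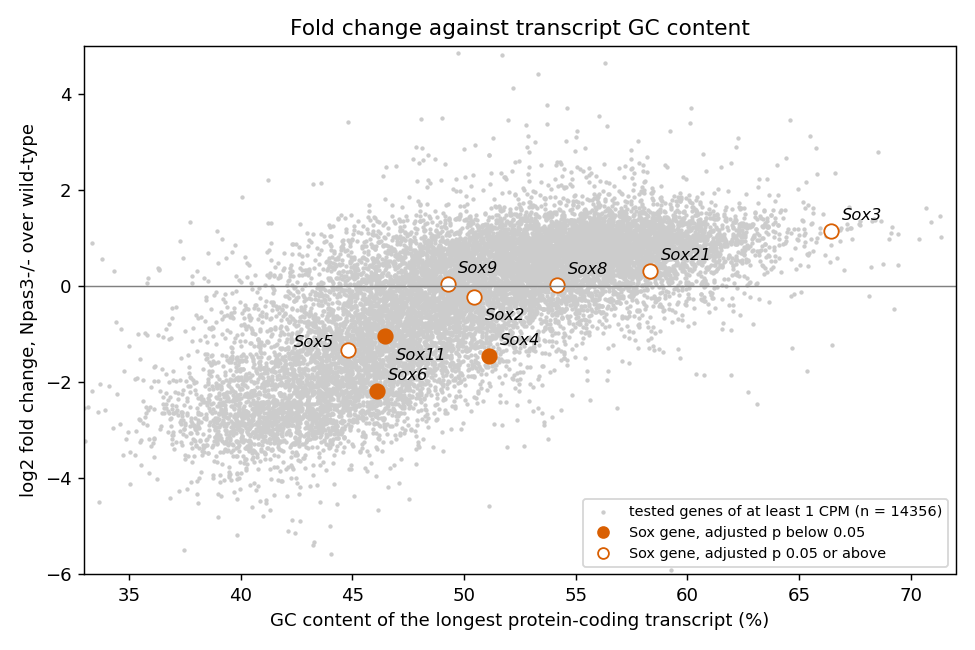
Log2 fold change (Npas3-/- over wild type) against GC content of the longest protein-coding transcript, with tested genes of at least 1 CPM in grey and the 9 tested Sox genes in orange (filled where the adjusted p was below 0.05). The axes leave out 26 of the 14356 genes. Sox5, Sox6 and Sox11 sit at the low-GC end with values below 0, Sox3 at the high-GC end, and Sox4 stands below Sox2, Sox8 and Sox9.

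Ratios of members within a library do not depend on library scaling. Sox4 counts were 1.95 and 2.35 times those of Sox9 in wild-type replicates 1 and 2, against 0.760 and 0.763 times in Npas3-/- replicates 1 and 2, for transcripts of 51.1% and 49.3% GC. Against Sox2, of 50.5% GC, the ratio of Sox4 was 1.22 and 1.79 in wild type against 0.745 and 0.543 in Npas3-/-. Both ratios, to Sox9 and to Sox2, were separated between genotypes. The Sox2 transcript is shorter, with 2057 bases against 4795 for Sox4. Against Sox11, of 46.5% GC and 8311 bases, the ratio of Sox4 was separated only narrowly. It was 4.39 and 6.47 in wild type against 4.29 and 3.82 in Npas3-/-. Sox6 and Sox11 transcripts are alike in GC content and length, and Sox6 counts were 1.63 and 2.67 times those of Sox11 in wild type against 1.21 and 0.736 times in Npas3-/-, separated again but with a wide spread. Within SoxE the ratio of Sox8 to Sox9 was 0.586 and 0.488 in wild type against 0.499 and 0.550 in Npas3-/-, overlapping. With 2 samples against 2, an exact permutation test of such a ratio cannot reach the 0.05 threshold, and none was run.

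Levels can be compared between members only per transcript length, here as TPM (transcripts per 1000000, from counts over merged exon length). For Sox4 this takes all 4795 exon bases, though whether reads over the 2616 shared with Gm26735 were counted is unknown. If they were not, the TPM of Sox4 and its share of SoxC are given too low. In wild type the order was Sox2 (317 ± 5.18 TPM), Sox4 (204 ± 52.3), Sox21 (125 ± 23.4), Sox9 (109 ± 13.6), Sox8 (77.2 ± 0.315), Sox3 (70.6 ± 30.5), Sox6 (26.2 ± 8.54), Sox11 (21.8 ± 0.324), Sox5 (1.60 ± 0.201) and Sox10 (0.0306 ± 0.0432). Neighbours in this order whose libraries overlapped were Sox21 with Sox9, Sox8 with Sox3, and Sox6 with Sox11. In Npas3-/- Sox2 was again first (205 ± 4.96 TPM), followed by Sox3 (117 ± 19.96) and Sox21 (116 ± 17.3), whose libraries overlapped. Sox4 stood sixth there (56.5 ± 11.2 TPM), overlapping Sox8 (59.5 ± 7.997), below Sox9 (86.1 ± 17.3) and above Sox11 (8.01 ± 0.940), Sox6 (4.45 ± 2.01) and Sox5 (0.490 ± 0.212). TPM is used only for order within a genotype and for shares of a Sox group within a library, since its scaling differs from that of the tested CPM.

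The shares of the genes within each Sox group were compared next. Within SoxC, Sox4 held 75.4% and 84.0% of the summed TPM in wild-type replicates 1 and 2, against 60.9% and 55.5% in Npas3-/- replicates 1 and 2, while Sox12 held 14.7% and 8.51% in wild type against 30.9% and 36.2% in Npas3-/-. Within SoxD, Sox6 held 63.5% and 69.1% in wild type against 40.4% and 30.3% in Npas3-/-, and Sox13 held 31.0% and 27.8% against 55.2% and 66.2%. Sox12 and Sox13 transcripts have 59.9% and 60.8% GC, so these shares move with the composition trend too, and its part in them was not tested. Within SoxB1, Sox2 held 69.8% and 77.5% in wild type against 59.7% and 55.6% in Npas3-/-. Within SoxE, Sox9 held 56.3% and 60.7% in wild type against 60.2% and 57.8% in Npas3-/-, so the genotypes overlapped.

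**Figure D4:**
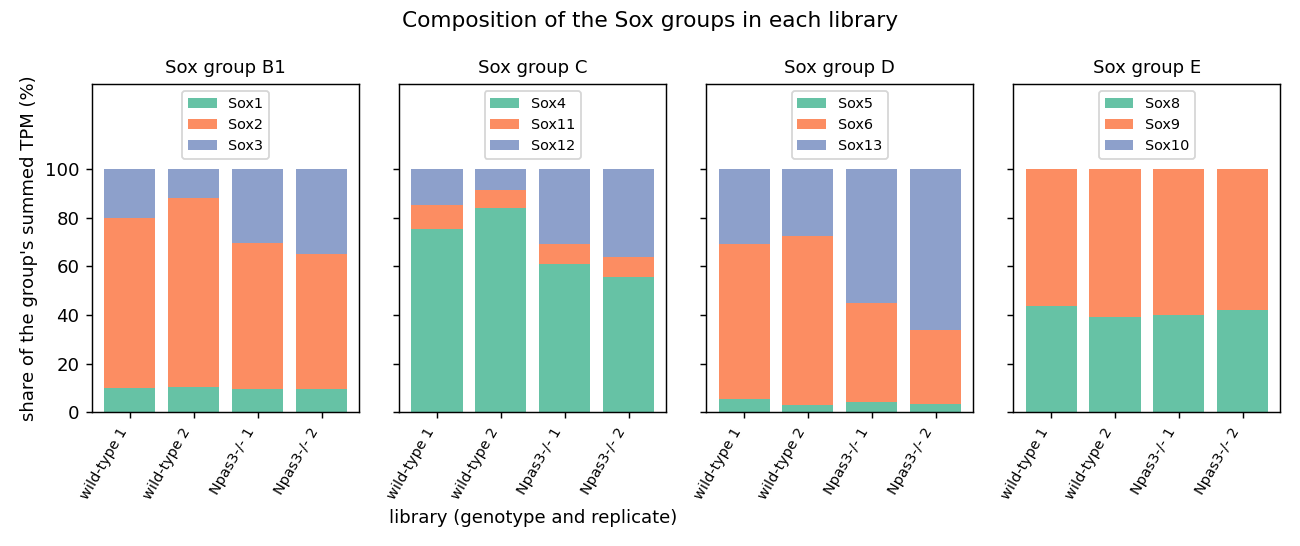
Share of each gene in the summed TPM of its Sox group (percent), in each of the 4 libraries. Sox4 in group C and Sox6 in group D take smaller shares in both Npas3-/- libraries than in both wild-type libraries, while the SoxE shares of Sox8 and Sox9 overlap and Sox10 is too small to see.

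Of the 10 other mouse Sox genes 6 were tested, and 0 rose and 0 fell, against 11.6% and 21.5% of all tested genes. After correction 0 rose and 0 fell as well, against 4.58% and 3.82%. Sox7, a SoxF gene known from endothelium, had 2389 and 3665 counts in wild type against 1681 and 1307 in Npas3-/- (log2 fold change -0.83; edgeR quasi-likelihood adjusted p = 0.0730) and -0.88 after correction (adjusted p = 0.0876, same test). Sox30 had 21 and 30 counts against 45 and 58, Sox18 8 to 24 and Sox15 0 to 36. The SoxF gene Sox17, Sox14 and Sry were at 0 counts in every library.

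The upstream sequences of the 3 genes below are shown because the factor missing by label, NPAS3, belongs to the bHLH-PAS proteins, whose dimers with ARNT bind sites around the core ACGTG. RefSeq start sites on GRCm38.p6 were matched for 7 of the 10 members in 12 windows, not for Sox3, Sox9 and Sox10. Each line gives the 250 bases before the start, with ACGTG on either strand in capitals.
Sox4 (chr13:28953700-28953949, minus strand): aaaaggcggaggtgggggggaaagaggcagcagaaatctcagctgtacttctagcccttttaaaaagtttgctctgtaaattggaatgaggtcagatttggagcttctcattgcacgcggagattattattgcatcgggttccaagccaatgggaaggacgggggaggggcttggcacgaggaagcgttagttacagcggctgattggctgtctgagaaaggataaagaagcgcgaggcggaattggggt
Sox6 (chr7:116038745-116038994, minus strand): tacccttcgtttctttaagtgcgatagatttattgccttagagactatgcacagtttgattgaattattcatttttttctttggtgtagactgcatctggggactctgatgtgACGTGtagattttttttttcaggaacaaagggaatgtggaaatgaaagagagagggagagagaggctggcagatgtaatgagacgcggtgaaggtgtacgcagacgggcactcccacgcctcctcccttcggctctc
Sox8 (chr17:25570687-25570936, minus strand): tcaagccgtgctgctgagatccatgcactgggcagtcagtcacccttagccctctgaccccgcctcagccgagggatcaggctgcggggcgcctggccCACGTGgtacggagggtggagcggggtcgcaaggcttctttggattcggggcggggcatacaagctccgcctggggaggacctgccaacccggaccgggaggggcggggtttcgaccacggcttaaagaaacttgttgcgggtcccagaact
Of the 12 windows 2 held the core, 1 of the 6 windows of Sox6 and that of Sox8, where the 2 matches on opposite strands overlap. Among all 32817 windows of this length 16.6% held it. The match is a description of these letters and not a measured site.

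Of 13 genes whose products work with SOX proteins, 1 rose and 8 fell, against 11.6% and 21.5% of all tested genes. Their median log2 fold change was -1.05 beside -0.07 for all tested genes, and -0.35 beside -0.03 after correction. Kpna2, which encodes a nuclear import receptor, fell from 154 ± 6.86 to 40.7 ± 3.74 CPM. The POU-domain gene Pou3f2, whose protein binds next to SOX2 and SOX11 on neural enhancers, fell from 22.9 ± 5.62 to 4.75 ± 0.595 CPM, and Nfib, a gliogenic nuclear factor gene, from 187 ± 63.3 to 28.4 ± 6.95 CPM. The most abundant, the beta-catenin gene Ctnnb1, did not pass (log2 fold change -0.44; edgeR quasi-likelihood adjusted p = 0.175). After correction 0 rose and 4 fell, against 4.58% and 3.82% of all tested genes. They were Kpna2 (-1.22), and Zfp536 (-2.86), Chd7 (-1.11) and Pou3f4 (-1.29), the last 3 named after their values were seen. The chromatin remodeller gene Chd7, whose product acts with SOX2, had 2808 and 4170 counts in wild type against 1215 and 649 in Npas3-/-. Nfib and Pou3f2 stood at -0.35 and -0.42 after correction and did not pass.

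Genes downstream of SoxE factors went both ways. Of 8 astrocyte genes tied to SOX9, 2 rose and 3 fell (against 11.6% and 21.5% of all tested genes), and 1 and 1 after correction (against 4.58% and 3.82%), with medians of -0.51 and 0.18. Gfap, the astrocyte intermediate filament gene and the most abundant here, rose from 634 ± 30.0 to 1885 ± 20.5 CPM and rose after correction too (0.92). The water channel gene Aqp4 fell from 311 ± 242 to 19.3 ± 3.97 CPM and fell after correction (-1.57), its 2 wild-type libraries differing widely at 12378 and 45090 counts. Nfia, a SOX9 partner and target in gliogenesis, fell from 76.0 ± 21.7 to 21.0 ± 2.18 CPM, a call that was lost after correction with the sign turned (0.66). Of 12 cartilage matrix genes under SOX9 control elsewhere, 3 rose and 3 fell, and 1 and 0 after correction, with medians of 0.50 and 0.13, beside the same shares of all tested genes. The collagen gene Col9a1 rose from 6.28 ± 1.01 to 33.1 ± 5.29 CPM and by 2.30 after correction, and Cnmd rose from 0.340 ± 0.0282 to 1.63 ± 0.0221 CPM. Col11a1, the most abundant of these, fell from 73.5 ± 2.47 to 36.8 ± 1.05 CPM and stood at 0.16 after correction.

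Of 18 oligodendrocyte and myelin genes tied to SOX10, 14 were tested, of which 1 rose and 2 fell, and 0 rose and 1 fell after correction, with medians of 0.16 and -0.38. The shares over all tested genes were 11.6% and 21.5%, and 4.58% and 3.82% after correction, so the uncorrected counts of this list were not above them. Cnp, a gene of myelinating glia, rose from 246 ± 24.7 to 416 ± 55.8 CPM and stood at 0.00 after correction. The endothelin receptor gene Ednrb fell from 39.8 ± 13.6 to 7.06 ± 4.06 CPM. Olig2 was the gene that fell after correction (-0.70, named after its value was seen), where the uncorrected value was 0.10. Olig1, the most abundant, did not pass (0.29, and -0.70 after correction).

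Of 14 progenitor genes tied to SOX2, 13 were tested, of which 0 rose and 4 fell (against 11.6% and 21.5% of all tested genes), and 1 rose and 2 fell after correction (against 4.58% and 3.82%), with medians of -0.14 and -0.09. Fabp7, a radial glia gene, fell and had 55973 and 86973 counts in wild type against 2753 and 3436 in Npas3-/-, and it fell after correction (-3.12). The Hedgehog effector gene Gli3 fell from 81.3 ± 5.06 to 18.0 ± 6.14 CPM and after correction too (-1.14). Ptch1, the Hedgehog receptor gene, fell with a log2 fold change of -0.98 and did not pass after correction (-0.31). Ccnd1, the most abundant, had 263827 to 395780 counts and did not pass in either fit. The receptor gene Egfr, named after its values were seen, fell before correction (-1.11) and rose after it (1.08).

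Of 11 neuronal genes tied to SoxC factors, 10 were tested, of which 1 rose and 4 fell (against 11.6% and 21.5% of all tested genes), and 0 rose and 1 fell after correction (against 4.58% and 3.82%), with medians of -0.51 and 0.24. Map2, which encodes a dendritic microtubule protein, fell from 40.7 ± 6.07 to 3.12 ± 1.85 CPM and was the gene that fell after correction (-2.72). Sema3c and Plxna2, genes of axon guidance, fell too, Sema3c from 59.2 ± 34.8 to 8.18 ± 1.27 CPM and Plxna2 from 105 ± 17.6 to 28.6 ± 15.5 CPM, without passing after correction. Tead2, a direct SOX4 and SOX11 target and the gene that rose here, went from 36.8 ± 10.8 to 72.1 ± 0.0114 CPM and stood at 0.41 after correction, without a call. Ncam1, the most abundant, did not pass (-0.10).

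Markers of other cells were read beside these results. The counts of markers called stand against 11.6% higher and 21.5% lower of all tested genes. After correction these shares were 4.58% and 3.82%. The astrocyte markers were abundant, summing to 3019 and 3819 CPM in wild type against 4810 and 4844 in Npas3-/-. Of the 9 tested 2 rose (Gfap and Aldoc) and 3 fell (Aqp4, Slc1a2 and Gja1), and 2 and 2 after correction. Without Gfap and Aldoc, left out after their values were seen, the other 8 summed to 2146 and 2789 CPM in wild type against 1494 and 1425 in Npas3-/-, so the higher sum came from these 2 genes. Of 8 neuron markers 5 were tested, and 0 rose and 2 fell (Map2 and Syt1), and only Map2 fell after correction. Their summed CPM were 307 and 164 in wild type against 199 and 197 in Npas3-/-, mostly from Stmn2 and Tubb3, while Dcx, Rbfox3 and Snap25 reached at most 35 counts in any library and stood at 0 in both Npas3-/- libraries. The sums overlapped between genotypes, and the part of neuronal RNA in the lower Sox4 and Sox11 was not tested. Of the 8 neural progenitor markers, which include Sox2 and Sox3, 0 rose and 3 fell, Fabp7 and Pax6 among them, and 2 fell after correction, where Pax6 did not pass. Their sum was 1578 and 1567 CPM in wild type and 849 and 940 in Npas3-/-, beside the lower Sox4 and Sox11. Without Fabp7, left out after its values were seen, the sums were 947 and 638 against 816 and 895 and overlapped, and their part in the Sox values was not tested. Precursors of oligodendrocytes (5 tested, 0 rose and Ptprz1 fell, and after correction Olig2 in its place) summed to 1473 to 1769 CPM, almost all Olig1 and Olig2, and Gpr17 reached at most 4 counts. Oligodendrocyte markers (7 tested, 1 rose, 1 fell) summed to 276 and 244 CPM in wild type against 386 and 464 in Npas3-/-, mostly Cnp, and Schwann markers (3 tested, 0 called) to 180 to 201 CPM, mostly Pmp22. Microglia markers (7 tested, 0 called) summed to 8.42 to 10.6 CPM, endothelial markers (5 tested, 0 rose, 1 fell) to 12.2 to 17.2 CPM with Cldn5 at most 4 counts, meningeal fibroblast markers (5 tested, 0 rose, 1 fell) to 260 to 348 CPM. Ependymal markers (4 tested, 0 rose, 1 fell) summed to 365 and 261 CPM in wild type against 502 and 635 in Npas3-/-, mostly Foxj1. After correction 0 oligodendrocyte, endothelial, fibroblast and ependymal markers were called. Mural markers (4 tested, 0 rose, 1 fell, also after correction) summed to 1769 and 413 CPM in wild type against 1926 and 2092 in Npas3-/-. These sums were mostly Acta2, at 1243 and 270 CPM in wild type against 1334 and 1359 in Npas3-/-. The untested Abcc9 went the other way, with 8 and 203 counts in wild type against 4 and 0 in Npas3-/-. Without wild-type replicate 2 the log2 fold change was -1.22 for Sox4, -1.85 for Sox6 and -1.11 for Sox11, and all 3 passed.

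The genes nearest in pattern to Sox2 and Sox9 were found by the Euclidean distance of log2 (CPM + 1) centred per gene over the 4 libraries, among tested genes of at least 5 CPM. For Sox2 they were Calhm2 (distance 0.0160), Med4 (0.0378) and Ndufs4 (0.0398), with Med4 at 24.3 and 22.9 CPM in wild type against 17.6 and 21.8 in Npas3-/-. For Sox9 they were Tfcp2 (0.0323), Fam118b (0.0410) and Nek6 (0.0480), with Nek6 at 227 and 253 CPM in wild type against 274 and 236 in Npas3-/-. With 4 libraries many genes share any such pattern.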

How the data were processed

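The authors deposited raw counts per gene, using HISAT2 2.1.0, Trimmomatic 0.3.8 and featureCounts on mm10, as the submitters' processing notes name them. Strand setting, annotation release and treatment of shared reads are unknown, as they are not given in the sources used. Identifiers were matched without version to GENCODE M21, 53274 of 53379. Columns were assigned by name and group label.

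Genes were tested in edgeR 4.0.16 under R 4.3.3 by quasi-likelihood, with TMM scaling, filterByExpr (minimum count 10), 2 residual degrees of freedom, and Benjamini-Hochberg adjustment over 18838 genes. Intervals are 95% intervals from its SE. The correction fitted, per library, splines with 6 degrees of freedom on GC content and log2 length of the longest protein-coding transcript, entered as offsets. Alternatives were DESeq2 1.42.0, its size factors, limma-voom (limma 3.58.1), other filters, replicate blocks, leaving out each library, and GC content of merged exons. The floor for Sox10 covers counting error only. The crossed block was chosen after seeing the data.

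On simulated data of 18446 genes with a GC trend, the corrected fit called 6 of 18246 unchanged genes and 66.0% of 50 genes changed 2-fold. The uncorrected fit called 4840 unchanged genes. Of 50 genes changed 1.5-fold the corrected fit called 2% and the uncorrected fit 38%. The simulated trend was linear in the GC content that the correction fits, without a trend on length, and changes were placed without regard to GC. The run therefore cannot show how well the correction works on the real data.

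Named were all Sox genes with counts, genes overlapping members, and in each list the 3 smallest p-values and the most abundant gene. The members, lists and rules were chosen with earlier results of these data known. Some genes chosen this way are not reported here.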

Additional observations from a re-analysis of the deposited data

How the results depend on the processing

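The number of all genes called, 6232, became 3997 without a filter on low counts, 2560 with the replicate block, 1581 with the GC and length correction, 0 with the correction and the replicate block together (4276 at an unadjusted p under 0.05, edgeR), 2383 with the correction on merged exons and 1973 with the correction and a crossed replicate block. Leaving out each library it ranged from 0 to 5832, and with the correction from 0 to 1816 (556 without wild-type replicate 2, 0 without either Npas3-/- library). Sox genes called higher, 0 by default, numbered 1 (Sox3) with DESeq2 and with the crossed replicate block, and 0 to 1 when each library was left out. Sox genes called lower, 3 by default, numbered 1 (Sox4) with the correction, with merged exons and with the crossed block plus correction, 0 with correction plus replicate block, 0 to 3 when each library was left out and 0 to 1 with the correction as well. DESeq2, limma-voom and the crossed replicate block called 4, adding Sox5. With the replicate block 2 were called, Sox11 standing at -1.04 with an edgeR quasi-likelihood adjusted p of 0.0766. Same-numbered deviations correlated at -0.29, and at -0.14 after the correction, so they showed no sign of pairing by replicate number. Because the genes share the composition trend, this value cannot tell whether same-numbered samples had a common origin. The crossed block, added after the data were seen, called 7670 genes.

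Directions that turned were as follows. Sox5 stood at 0.49 with the correction, 0.54 with either block added and 0.080 on merged exons. With the correction it was 0.95 and 0.11 without wild-type replicates 1 and 2, and 0.35 and 0.58 without Npas3-/- replicates 1 and 2. Sox8 stood at -0.028 with a filter of 5 CPM, -0.44 with the correction and with either block, and -0.65 on merged exons. Leaving out libraries gave Sox8 -0.031 to 0.056, and -0.49 to -0.38 with the correction (-0.39 without wild-type replicate 2). Sox9 stood at -0.0014 with the 5 CPM filter and at -0.061 to 0.15 when libraries were left out. Sox11 stood at 0.51 with the correction and with either block, and at -0.074 on merged exons. Leaving out wild-type replicates 1 and 2 with the correction gave 0.73 and 0.30, and leaving out Npas3-/- replicates 1 and 2 gave 0.72 and 0.25. Sox21 stood at -0.24 with the correction, -0.23 with either block and -0.43 on merged exons. With the correction and without 1 library it was -0.51 and 0.064 (wild-type replicates 1 and 2) and -0.056 and -0.46 (Npas3-/- replicates 1 and 2). Sox3 ranged from -0.077 (without wild-type replicate 2) to 0.62 when libraries were left out with the correction. Sox2, Sox4 and Sox6 kept their direction in all 19 alternatives. The cause of these turns was not tested. Where a genotype kept 1 library, that library was assumed to vary like the other genotype. Depth limits Sox10, and the filter of 5 CPM left Sox5 untested.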
